A study of Drosophila melanogaster with 2 samples.

Results

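Polycomb-like (Pcl) binding was examined at 3 groups of paralogous developmental genes on chromosome arm 2L of Drosophila melanogaster: the sloppy paired pair slp1 and slp2, the Wnt group Wnt4, wg, Wnt6 and Wnt10, and the POU pair nub and pdm2. Members are the Pcl peaks whose centre fell in 1 of 3 fixed windows of build BDGP5 (Release 5), which numbered 8 of the 388 peaks on 2L and of the 2457 peaks in the whole list. The windows were 2L:3800000-3870000 for the slp pair (70 kb), 2L:7230000-7380000 for the Wnt group (150 kb) and 2L:12580000-12720000 for the POU pair (140 kb). The windows were set around known gene groups and not by peak scores or widths, but the choice was made with earlier results of these data known.

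The data are a single ChIP-seq peak list from untreated whole embryos aged 0 to 8 h, immunoprecipitated with the antibody KW4-Pcl-D2. The protocol, written for many factors, names the iso1 strain (y; bw cn sp) and transgenic flies without saying which was used here. The ChIP sample is labelled as 3 replicates in one, and input chromatin of the same age was the control. The input has no peak list analysed here, so no background level could be set beside the peaks. Because the replicates share 1 list, no value below has a replicate error and no difference between loci could be tested. The embryos are mixtures of all cell types over several stages, so a peak cannot be traced to the cells in which the gene was silent or active.

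Pcl is a PHD-finger protein that works with Polycomb repressive complex PRC2, which methylates lysine 27 of histone H3, and it is needed for high levels of that methylation at target genes. Many Polycomb targets in the fly are developmental regulators, often in neighbouring pairs or groups with related expression. The slp genes encode forkhead transcription factors of the segmentation cascade and help to maintain wg expression in the embryonic segments. The Wnt genes encode secreted ligands: wg is the segment polarity signal, Wnt4 can oppose wg in some tissues, Wnt6 is expressed together with wg in several tissues, and Wnt10 is a further ligand of the family. The genes nub and pdm2 encode POU-domain transcription factors with overlapping roles in the temporal patterning of embryonic neural stem cells, and nub is also required for wing growth.

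The gene groups differed in whether another protein-coding gene came between their members in gene order. Distances between the genes were not measured. All 8 genes were found on 2L in RefSeq's gene table, which is on Release 6 and was used here for names and order only. The order is that of gene starts on the map, so a gene nested inside a neighbour also counts as between. In that order slp1 and slp2 were adjacent protein-coding genes, flanked by CG3407 and TTLL4B. In the Wnt group wg, Wnt6 and Wnt10 followed each other directly, and 1 protein-coding gene (CG31909) came between Wnt4 and wg in the order. In the POU pair 1 protein-coding gene (Ref2) came between nub and pdm2 in the order. Whether CG31909 or Ref2 lies inside a neighbouring gene was not checked. The peak coordinates are on Release 5, so the positions of the genes inside the windows were not checked on that build, the distance of a peak from a start site was not measured, and no peak was assigned to 1 gene of its group.

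Pcl peaks were present in all 3 windows, but their numbers and scores were unequal. The slp window held 3 peaks, the Wnt window 4 and the POU window 1. Of equal tiles of 2L, 40.4% at 70 kb, 17.8% at 150 kb and 19.1% at 140 kb held no peak. Presence of a peak was thus common on the arm. The slp window held the 1 member in the upper 10% of the list by score, a peak of 2610 bp with a score of 249.65 that ranked 142 of 2457. The highest peak of the Wnt window ranked 727, and the single POU peak ranked 1335. Peaks covered 6.33% of the slp window, 2.47% of the Wnt window and 0.853% of the POU window, against 1.73% of 2L between its first and last peak. The score is the authors' peak-caller value, on a scale the file does not state, and is used here only to rank and describe peaks within the list.

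**Figure D1:**
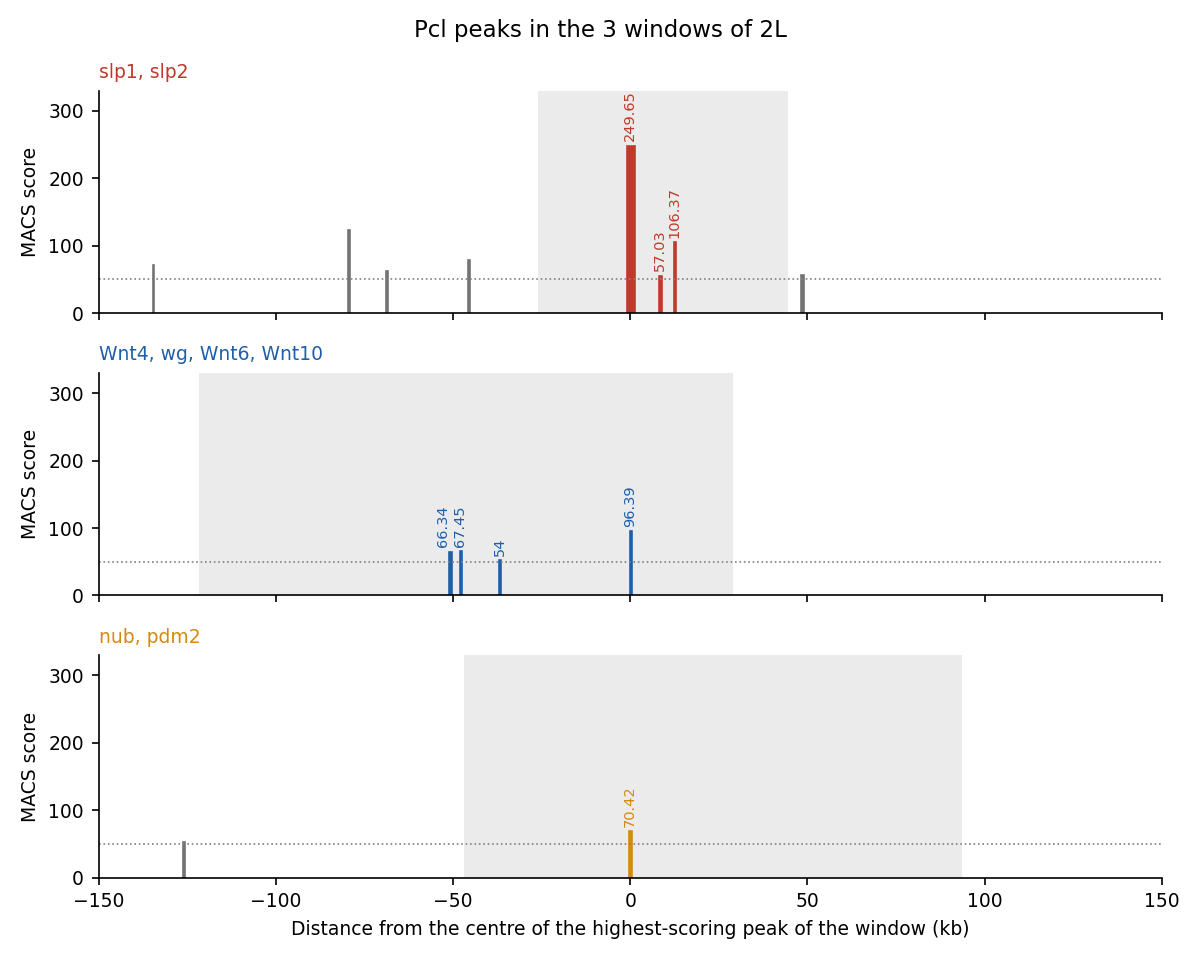
Map of Pcl peaks around each gene group, with distance from the centre of the window's highest-scoring peak (kb) on the x axis and the MACS score on the y axis. Bars span each peak at its true width, coloured bars lie inside the window (grey band), grey bars lie outside it, and the dotted line marks the lowest score in the list (50.01). The slp peaks sit within 14.3 kb with 1 tall peak, the Wnt peaks spread over 51.8 kb, and the POU peak stands alone.

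In the slp window the highest-scoring peak came first in map order and lower-scoring ones followed. The first peak, 2L:3824468-3827077, was 2610 bp wide with a score of 249.65. It ranked 15 of 388 on 2L by score and 6 by width. The second, 2L:3833735-3834617, was 883 bp wide with a score of 57.03 and ranked 1996 of 2457, with 18.7% of all peaks scoring lower. The third, 2L:3837854-3838789, was 936 bp wide with a score of 106.37 and ranked 604. Gaps of 6.66 kb and 3.24 kb separated them, so they formed 1 cluster of 14.3 kb when peaks with gaps under 10 kb were joined. That cluster occupied 20.5% of the window. The remaining sequence, 24.5 kb before it and 31.2 kb after it, held no peak.

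The Wnt window held a loose row of peaks after an empty first stretch, and all 4 scored below 100. The first peak, 2L:7300038-7301213, was 1176 bp wide with a score of 66.34 and ranked 1505 of 2457. The second, 2L:7302980-7303852, was 873 bp wide with a score of 67.45 and ranked 1450. These formed a pair with a gap of 1.77 kb. The third, 2L:7314129-7314950, was 822 bp wide with a score of 54.00 and ranked 2197, the lowest of all 8 members. The last, 2L:7350982-7351808, was 827 bp wide with a score of 96.39 and ranked 727, so the highest score of the Wnt window belonged to the peak farthest from the other 3. The gaps before the third and the last peak were 10.3 kb and 36.0 kb. With the gap of 10 kb the row therefore counted as 3 clusters, although the 10.3 kb gap only just exceeded that limit. The first 70.0 kb of the window, 46.7% of its length, held no peak.

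The POU window held 1 peak at 2L:12625987-12627180, which was 1194 bp wide with a score of 70.42. It ranked 1335 of 2457 by score, just past the middle of the list, but 410 by width. No peak was listed in the 46.0 kb before it or in the 92.8 kb after it within the window. Binding below the authors' cut-off would not appear in the list.

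The order of the loci depended on the measure. By number, the Wnt window came first, but its window was longer: per 100 kb the slp window held 4.29 peaks, the Wnt window 2.67 and the POU window 0.714, against 1.78 on 2L between its first and last peak. This rate follows the window length, since the most peaks in any 70 kb of a window numbered 3 in the slp window, 4 in the Wnt window and 1 in the POU window. By number the slp window also passed the Wnt window, with 2 peaks against 1, in the 1228 highest-scoring peaks, and with 5 against 4 when every window was widened by 20 kb. By covered share the order was slp, Wnt, POU in the list as deposited and under the 7 other peak or window settings tried, except that the Wnt and POU windows were both at 0% among peaks scoring at least 100. In the deposited list the covered share of the slp window was 2.57 times that of the Wnt window and 7.42 times that of the POU window. This share also follows the window length, as the slp window was 70 kb against 150 kb and 140 kb, and every setting kept the windows unequal. In absolute terms the slp peaks covered 4429 bp, the Wnt peaks 3698 bp and the POU peak 1194 bp, and 1 slp peak made up most of the slp sum. In covered bp the slp window held 1.20 times the Wnt window and 3.71 times the POU window.

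Equal tiles of the arm put the counts into proportion. Of 314 tiles of 70 kb, 15.9% held at least the 3 peaks of the slp window, and 127 tiles held none. Of 146 tiles of 150 kb, 26.7% held at least the 4 peaks of the Wnt window, 26 tiles held none and the fullest held 17. Of 157 tiles of 140 kb, 80.9% held at least the 1 peak of the POU window, so its count was below the median of 2. More peaks than in the window were held by 32 tiles for slp, 33 for Wnt and 93 for POU.

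**Figure D2:**
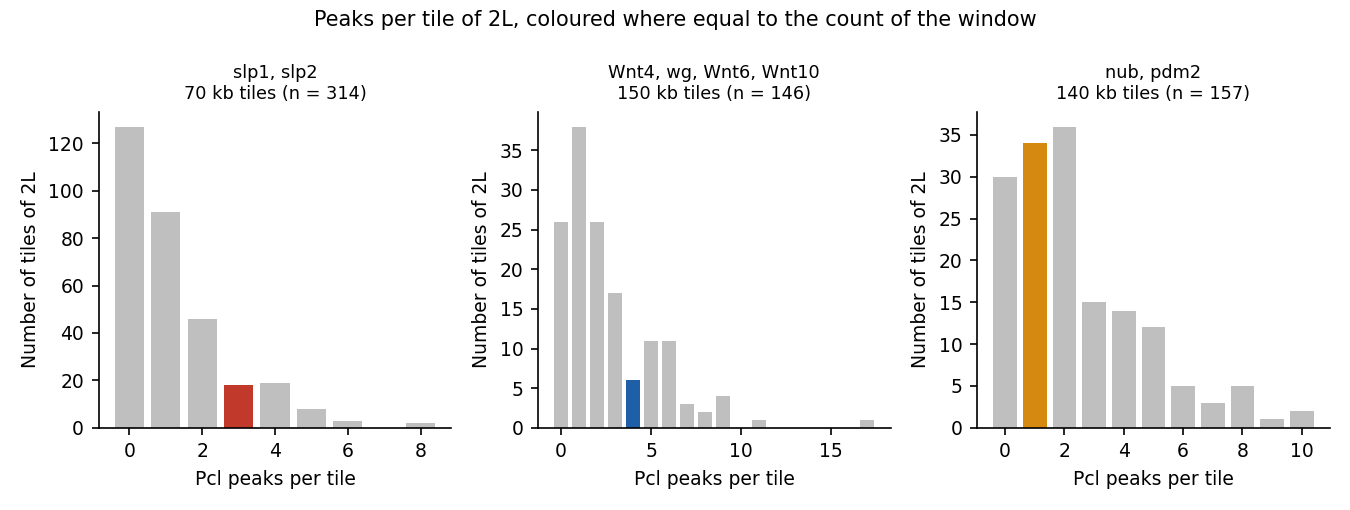
Number of Pcl peaks per tile (x axis) against the number of tiles of 2L (y axis), for tiles of 70, 150 and 140 kb, each the length of the window named above the panel. The coloured bar marks tiles with the same count as the window: 18 tiles with 3 peaks for slp, 6 tiles with 4 for Wnt and 34 tiles with 1 for POU.

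As a set the 8 peaks ranked near the middle of the list. Their scores ran from 54.00 to 249.65 with a median of 68.9, against a median of 73.4 for the other 380 peaks of 2L and 73.6 for the other 2449 peaks of the list. The median rank was 604 in the slp window, 1477.5 in the Wnt window and 1335 in the POU window. Among the 245 highest-scoring peaks, the upper 10% of the list, was 1 of the 8 (12.5%, 95% exact binomial interval 0.316 to 52.7), against 9.97% of all peaks and 6.70% of 2L peaks. A score of at least 100 was reached by 2 of the 8, both in the slp window, against 27.3% of all peaks and 24.7% of 2L peaks. Scores below 60 were found for 2 of the 8, 1 each in the slp and Wnt windows, against 26.0% of all peaks and 28.6% of 2L peaks. These shares were near the background, and with 8 peaks their intervals are wide and cover counting error only. The intervals also treat the 8 peaks as independent, although 5 of them shared a cluster with another peak.

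Apart from the slp peak of 2610 bp, all members were between 822 and 1194 bp wide. Median widths were 936 bp in the slp window (range 883 to 2610 bp), 850 bp in the Wnt window (range 822 to 1176 bp) and 1194 bp for the POU peak. The median over all 8 was 909.5 bp, against 829 bp for the other peaks of 2L. Of the 8 members, 6 were wider than the median peak of the list, against 49.9% of all peaks and 50.3% of 2L peaks. The first slp peak alone reached 1300 bp, 1 of 8 against 12.0% of all peaks and 11.3% of 2L peaks. It is also the 1 member among the 296 peaks of that width, and all 8 members belong to the 388 peaks of 2L. The POU value rests on 1 peak, and the order of the medians changed with the score limit: among peaks scoring at least 60, which leave out the 883 bp slp peak, the slp median was 1773 bp, above the 1194 bp of the POU peak.

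Width and score rise together across the list, with a Spearman's rho of 0.67 over the 388 peaks of 2L and 0.55 over the 8 members, given as descriptions since both values come from the same reads of 1 list. Each width was therefore also set against the median width of the 20 peaks of the arms nearest in score. The first slp peak was 1.61 times as wide as those peaks (2610 against 1617 bp). The first Wnt peak was 1.61 times (1176 against 732 bp) and the POU peak 1.55 times as wide (1194 against 769.5 bp). At the other end, the last Wnt peak was 0.839 times (827 against 986 bp) and the third slp peak 0.929 times as wide (936 against 1008 bp). The 3 remaining peaks lay between 1.07 and 1.21. In all, 6 of 8 members were wider than peaks of like score, against 50.2% of all arm peaks and 54.9% of 2L peaks. Each multi-peak window thus held both a peak 1.61 times as wide and a peak narrower than its score neighbours, and the narrower ones were the second highest slp peak and the highest Wnt peak.

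**Figure D3:**
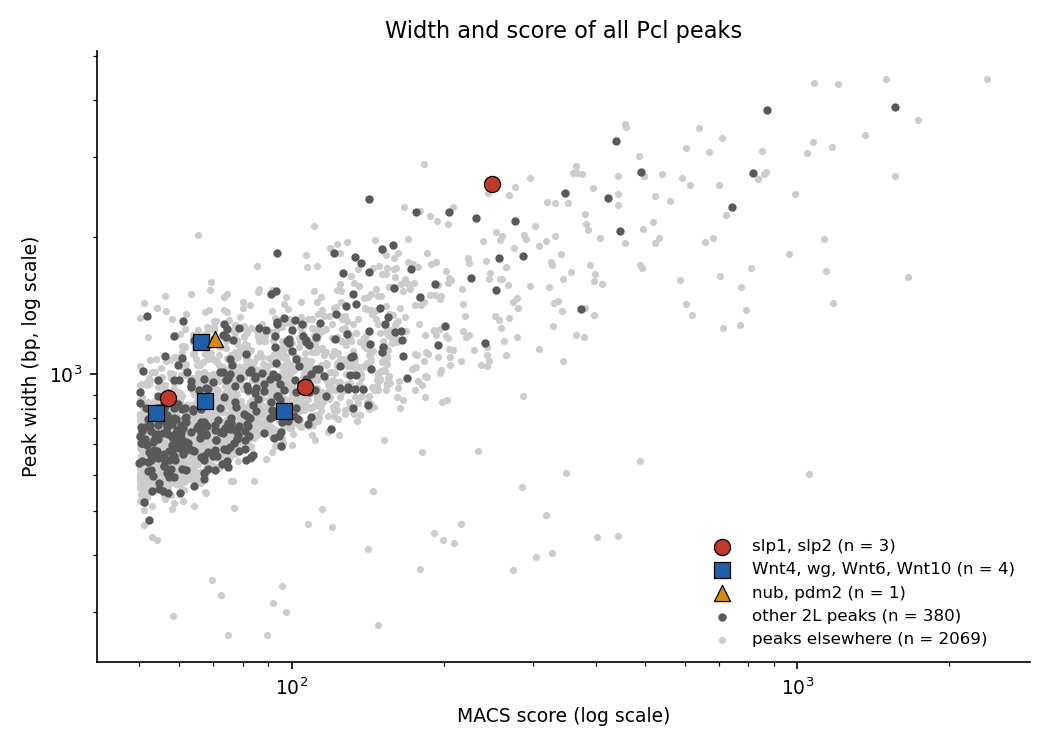
Peak width (bp, log scale, y axis) against MACS score (log scale, x axis) for the 3 slp, 4 Wnt and 1 POU peaks (large symbols), the other 380 peaks of 2L (dark points) and the 2069 peaks elsewhere (light points). The first slp peak lies at the upper edge of the points of like score, and the first Wnt peak and the POU peak lie side by side at 1176 and 1194 bp.

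The loci also differed in the length of peak-free sequence around them. The slp peaks had listed neighbours 44.0 kb before and 35.0 kb after them, gaps that ranked 138 and 157 of the 387 gaps between peaks on 2L. The Wnt peaks were bordered by 252.7 kb and 194.9 kb without a listed peak, which ranked 14 and 23 of 387. The POU peak was bordered by 125.1 kb and 334.7 kb, which ranked 56 and 7. The median gap on 2L was 23.3 kb and the longest 457 kb. Thus 4 Wnt peaks stood in 499 kb between the previous and the next peak, and 1 POU peak in 461 kb, whereas the stretch around the 3 slp peaks measured 93.3 kb. The POU peak was the 1 member with no other peak within 100 kb, 1 of 8 against 4.64% of 2L peaks and 3.91% of all peaks.

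For the highest-scoring peak of each window, the distance to the nearest higher-scoring peak on 2L was also read. By that choice no higher peak could lie inside its window, so a longer distance than for most peaks is partly built in. The distance also depends on how many peaks are listed nearby: the POU peak had none within 125 kb. The nearest higher-scoring peak lay 519 kb from the last Wnt peak (score 96.39), and 5.17% of the 387 peaks of 2L that have a higher-scoring peak on the arm had a longer distance. It lay 219 kb from the first slp peak (score 249.65; 11.4% of peaks had a longer distance) and 169 kb from the POU peak (score 70.42; 14.7%). The median distance on 2L was 29.6 kb. The second Wnt peak had its nearest higher-scoring peak at 48.0 kb, inside its own window, and the 4 remaining members at 2.79 to 12.5 kb, also inside their windows. The leading Wnt peak (rank 727), below the leading slp peak (rank 142) in the whole list, was the highest over a longer stretch than that peak. The gaps bordering the Wnt peaks were also longer than those bordering the slp peaks.

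**Figure D4:**
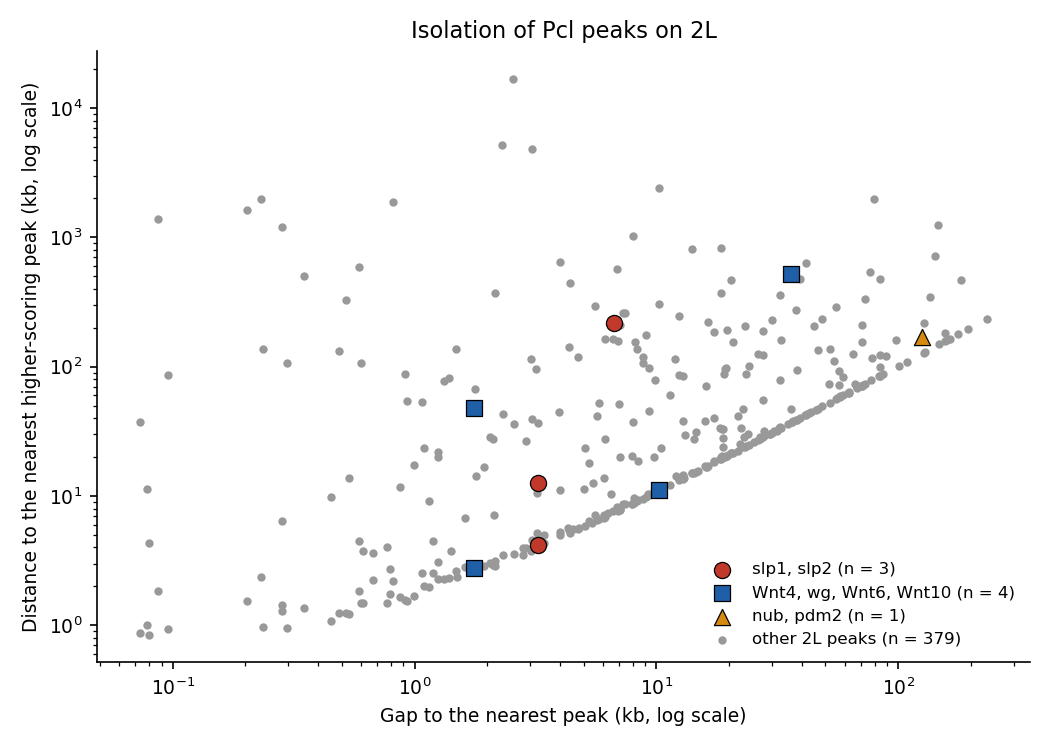
Distance to the nearest higher-scoring peak on 2L (kb, log scale, y axis) against the gap to the nearest peak of any score (kb, log scale, x axis) for the 8 member peaks (large symbols) and 379 other 2L peaks (the highest of the arm has no higher peak and is left out). The leading Wnt, slp and POU peaks lie at 519, 219 and 169 kb, and the POU peak is the farthest to the right of the members at 125.1 kb.

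In clusters, the slp peaks and the first 2 Wnt peaks shared a cluster with another peak, 5 of 8 members against 58.9% of all peaks and 51.8% of 2L peaks. No member was in a cluster of at least 5 peaks, a size that held 19.3% of all peaks and 4.90% of 2L peaks.

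The window edges cut through no group of peaks, with 1 near miss. The peak next to the right edge of the slp window was centred 4.25 kb outside it (2L:3873766-3874733, score 58.43, 968 bp), and the peak next to the left edge 19.9 kb outside (2L:3779745-3780491, score 80.82, 747 bp). Inside the same edges, the nearest member centres were 31.7 kb and 25.8 kb away. At the Wnt window the nearest outside peaks were 183 kb (score 66.88) and 167 kb (score 55.56) away, and at the POU window 79.5 kb (score 54.53) and 242 kb (score 54.21). The member count of the Wnt and POU windows was therefore the same when the edges were moved by 20 kb outward or 10 kb inward.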

How the data were processed

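Chromatin immunoprecipitation with an antibody against Pcl was followed by sequencing in embryos of 0 to 8 h. Per the labels' protocols, material was fixed with 1.8% formaldehyde for 15 minutes, and sonicated chromatin was precipitated overnight. Bowtie and build BDGP5 are named per the submitters' processing notes, and peaks were called with MACS, per the file headers. For versions, settings and how the 3 replicates were combined, the labels and the file are silent. The deposited score is the peak caller's value, with 50.01 as the lowest. No read counts were used, so the depth is unknown.

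Widths were taken as the end minus the deposited 0-based start, and starts are printed as 1-based positions. Peaks were assigned by centre, ranked over all 2457 peaks and joined into clusters at gaps under 10 kb. Tiles ran from the arm start. Python 3.11.15, pandas 2.3.3 and SciPy 1.17.1 were used, and the functions were tested on simulated data. All values are descriptions. All member peaks are named, because no window held over 15, with the first peak outside each edge. The members and lists were chosen with earlier results of these data known. The distance to the nearest higher-scoring peak, the gap ranks and the ranking by width were added after the data were seen. Start site distances, promoter motifs and protein identities were not analysed here. No sequences were used.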

Additional observations from a re-analysis of the deposited data

How the results depend on the processing

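Of 93 recomputed values, 81 changed by a factor of at most 1.5 (numbers of peaks or clusters) or stayed within the range of the members or an exact binomial interval (other values), and 12 moved. A median cannot leave the range of the members when peaks are only taken out, so the score limits could not move a median. With a score of at least 60, the slp median width of 1773 bp in place of 936 bp counted as unmoved. Medians of windows left without a peak are not among the 93. Widening the windows by 20 kb gave 5 slp peaks in place of 3, as the nearest outside peaks entered. In the 1228 peaks with the highest scores the Wnt window held 1 peak in place of 4 (covering 0.551% in place of 2.47%) and the POU window 0 in place of 1 (covering 0%). With a score of at least 100, the Wnt window and the POU window held 0 peaks (covering 0%), and neither has a median there. The slp window held 2 peaks in place of 3 in both of these lists and with a score of at least 60. These losses follow from the scores. A cluster gap of 1 kb gave 3 slp clusters in place of 1, and one of 50 kb gave 1 Wnt cluster in place of 3. The POU peak ranked 410 by width, against 1335 by score. Shifting the tiles moved no value past these limits. Joining gaps under 1 kb, assigning by overlap and narrowing the windows by 10 kb could not change the members. No gap beside a member was under 1.77 kb, and no member centre was nearer than 25.8 kb to an edge. The nearest outside peak was centred 4.25 kb beyond an edge. Narrowing did raise the covered share of the slp window from 6.33% to 8.86%, within its wide interval. Leaving out a replicate could not be run. No paired analysis was possible because 1 list stands for all replicates. Without read counts, sequence without a peak cannot be told from weak binding.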
